A study of Mus musculus with 201 samples.

Results

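Phf21b, Zfp516 and Sertad1 are 3 genes for nuclear regulators, and they were followed here through 201 single-cell and single-nucleus libraries of mouse dentate granule cells. They make up 3 of the 42983 gene symbols in the tables. The genes were selected on measured values, because they were among those with the strongest difference between FOS+ and FOS- nuclei in these same libraries. Their FOS+ and FOS- values are therefore given as a description, and nothing rests on them as evidence.

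Dentate granule cells, the principal neurons of the dentate gyrus, are largely silent, and a small fraction switches on an early transcription programme when an animal explores a new place. FOS is an early protein of that programme, and Arc, which encodes a cytoskeleton-associated protein of active synapses, is one of its most abundant transcripts. Phf21b encodes a PHD finger protein, the close relative of Phf21a (BHC80), which reads the unmodified histone H3 tail in the LSD1-CoREST corepressor complex. Zfp516 encodes a zinc finger protein known as an activator of Ucp1 in brown fat and as a partner of CtBP, LSD1 and CoREST in repression. Sertad1 encodes a SERTA domain protein that binds CDK4 and the E2F partner DP1.

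The FOS+ and FOS- nuclei came from an adult female C57BL/6 mouse that briefly explored an unfamiliar environment (NE) and then spent an hour in its home cage. They were released by Dounce homogenization and sorted as Prox1+/Fos+ or Prox1+/Fos- by antibody staining, Prox1 being a transcription factor of granule cells. Home-cage (HC) nuclei came from a C57BL/6 mouse and are labelled NeuN+/Prox1+, which the study scored from images of the stained nuclei after capture. Whole cells (WC) were dissociated with protease from Prox1-GFP mice treated with pentylenetetrazole (PTZ), a convulsant that blocks GABA(A) receptors, or with saline, an hour before dissection, and were sorted as GFP+, the reporter of Prox1. The NE nuclei and WC were amplified with Smart-seq2 and the HC nuclei on the C1 microfluidic system. Of 48 FOS+, 48 FOS-, 23 HC, 47 saline and 35 PTZ libraries, 40, 41, 23, 38 and 30 were kept, which is 172 in all.

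The series text names 1 mouse for each condition, while the study's methods give a pair of mice with pooled hippocampi for each whole-cell treatment. No library is assigned to an animal, so each group was treated as 1 sample. No p-value was computed from cells or nuclei, and each interval below is a 95% interval that covers counting error only, with reads carrying no molecular identifiers. FOS+ and FOS- nuclei came from the same animal by the series text, and every other difference between groups cannot be told apart from a difference between mice. Median total counts per library were 269061 in FOS+, 214421 in FOS-, 165926 in HC, 975934 in saline and 1090760 in PTZ, with single libraries between 63775 and 5129240. Of 5 granule cell markers (Prox1, Rbfox3, Calb1, C1ql2 and Dsp), all 5 were detected in at least 1 library of each group. At least 2 were held by 38 of 40 FOS+, 39 of 41 FOS- and 17 of 23 HC nuclei. The same held for 38 of 38 saline and 28 of 30 PTZ cells. A gene is called detected in a library above 1 TPM, a level scaled to both transcript length and library total.

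The promoters of Phf21b and Sertad1 are shown because their transcripts were both detected mainly in FOS+ among the NE nuclei, and no window of Zfp516 was used here. Each line holds the 250 bases before the RefSeq transcription start (GRCm38.p6), 5′ to 3′ on the gene's own strand, and capitals mark the GC box GGGCGG on either strand.
Phf21b, chr15:84855100-84855349, minus strand: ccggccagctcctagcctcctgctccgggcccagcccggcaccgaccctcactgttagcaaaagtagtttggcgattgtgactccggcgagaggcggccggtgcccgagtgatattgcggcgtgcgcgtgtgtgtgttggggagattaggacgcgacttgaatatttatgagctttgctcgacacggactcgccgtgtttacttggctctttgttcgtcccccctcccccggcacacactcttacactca
Sertad1, chr7:27486703-27486952, plus strand: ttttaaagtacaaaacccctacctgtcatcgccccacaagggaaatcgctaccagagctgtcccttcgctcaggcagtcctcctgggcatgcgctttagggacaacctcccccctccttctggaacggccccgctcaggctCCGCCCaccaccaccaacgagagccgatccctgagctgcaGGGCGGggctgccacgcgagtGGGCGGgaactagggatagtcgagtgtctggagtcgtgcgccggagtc

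The windows searched for motifs ran 300 bases, 250 before and 50 after the start, and both strands were read. Sertad1 held 3 GC boxes, beginning at -109, -69 and -48 from the start, and Phf21b held none, against 35.9% of 32544 distinct promoter windows with at least 1. Neither window held the cyclic AMP response element TGACGTCA (1.80% of all windows), its short form TGACG (20.9%), which is also part of the full element, the AP-1 site TGANTCA (7.79%) or the EGR site GCGTGGGCG (0.618%). The CArG box of serum response factor (1.64%), the MEF2 site (0.559%), the E-box CACGTG (7.17%) and the TATA box TATAAA (13.6%) were not in these 2 windows either. GC content was 63.0% for Phf21b and 62.0% for Sertad1, and the median window had 53.0%. A GENCODE transcript of Sertad1 begins upstream of the RefSeq start, at 27486910, and 1 GENCODE start of Phf21b lies at 84856049, outside the window.

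In FOS+ nuclei the 3 transcripts were each found in a minority of nuclei, and each was detected in 1 FOS- nucleus. Phf21b was detected in 16 of 40 FOS+ nuclei (40%, exact binomial interval 24.9% to 56.7%) and in 1 of 41 FOS- nuclei (2.44%, 0.0617% to 12.9%). Its TPM in those 16 nuclei ran from 32.6 to 887.5 with a median of 184.7, and the single FOS- nucleus had 9.21 TPM from 4 counts. Expected counts in the 16 nuclei ran from 7 to 359.9 with a median of 47.7. TPM did not follow counts closely, since 7 counts gave 182.5 TPM in 1 nucleus and 22 counts gave 32.6 TPM in another. The detected FOS+ values all lay above the FOS- value, and the other 24 FOS+ nuclei had none.

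Zfp516 was detected in 14 of 40 FOS+ nuclei (35%, 20.6% to 51.7%) and in 1 of 41 FOS- nuclei, at 1.51 TPM from 0.48 expected counts. Its levels where detected ran from 1.19 to 249.4 TPM with a median of 37.4, below the median of Phf21b. A further 4 FOS+ and 2 FOS- nuclei had a value above 0 that did not reach 1 TPM, so the groups overlapped at low values.

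Sertad1 was detected in 10 of 40 FOS+ nuclei (25%, 12.7% to 41.2%) and in 1 of 41 FOS- nuclei, at 6.02 TPM from 1 count. Where detected in FOS+ nuclei it had the highest levels of the 3 genes on the length-corrected scale, from 218.8 to 1681.8 TPM with a median of 530.4. No FOS+ nucleus lay between 0 and 218.8 TPM. The plot of levels by group shows this gap.

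**Figure D1:**
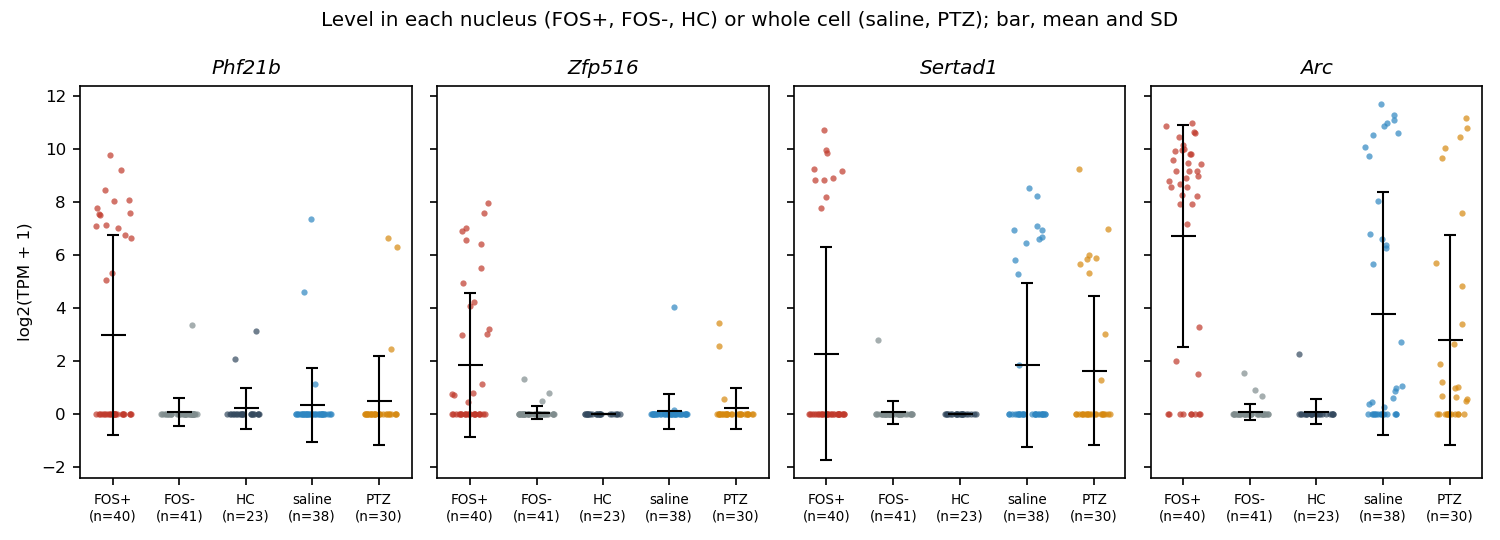
Level of each transcript, as log2(TPM + 1), in every library of the 5 groups, with the group mean and SD over libraries as bars. Detected FOS+ nuclei lie at 32.6 TPM or more for Phf21b and 218.8 TPM or more for Sertad1, and reach down to 1.19 TPM for Zfp516 and 1.85 TPM for Arc, while 40 of 41 FOS- nuclei were not detected for each, and Sertad1 and Arc are also seen in saline and PTZ whole cells.

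The mean of log2(TPM + 1) was 2.98 ± 3.77 (SD over 40 nuclei) in FOS+ and 0.08 ± 0.52 (41 nuclei) in FOS- for Phf21b. For Zfp516 it was 1.86 ± 2.71 and 0.06 ± 0.25, and for Sertad1 2.29 ± 4.04 and 0.07 ± 0.44. The SD in FOS+ exceeded the mean for each gene, since most nuclei were at 0. Summed over nuclei, Phf21b had 1832 expected counts in FOS+ and 4 in FOS-, Zfp516 had 1685 and 3.4, and Sertad1 had 1993 and 1. The ratio of summed CPM (counts scaled to the total of the group) was 442 for Phf21b (counting interval 172 to 1625), 479 for Zfp516 (185 to 2633) and 1925 for Sertad1 (345 to 76061), or 642 for Sertad1 with its FOS- sum raised to a floor of 3 counts. The nucleus with the most counts held 19.6%, 21.8% and 16.3% of the FOS+ sum for the 3 genes in that order.

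Share differences, FOS+ minus FOS-, were 37.6 percentage points for Phf21b, 32.6 for Zfp516 and 22.6 for Sertad1. Among 16387 features detected in at least 5 NE nuclei, 4.3% had a share at least 20 points higher in FOS+ and 3.7% at least 20 points lower, and the median difference was -0.854 points. For summed CPM, 7.74% were at least 4-fold higher and 13.4% at least 4-fold lower. All 3 genes passed both limits on the higher side, which their selection fixed, so nothing is read from that count. From the highest difference down, Arc stood at rank 1, Phf21b at 71, Zfp516 at 114 and Sertad1 at 500, as the histogram of share differences shows.

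**Figure D2:**
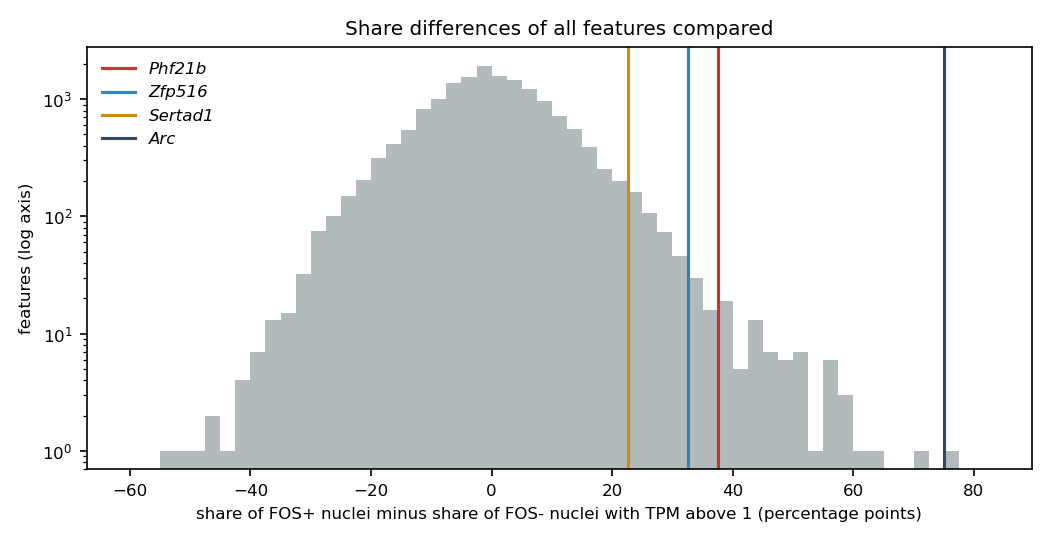
Number of features (log axis) by the share of FOS+ minus the share of FOS- nuclei above 1 TPM, in percentage points, for 16387 features. Vertical lines mark Sertad1 (22.6), Zfp516 (32.6), Phf21b (37.6) and Arc (75.1), all on the right flank of a distribution centred near 0.

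Members of the LSD1-CoREST-CtBP group were not uniformly higher in FOS+ nuclei. Of 22 such genes, 20 passed the filter, 3 were at least 20 points higher in FOS+, 4 were at least 20 points lower, and their median difference was -3.63 points, beside 4.3% higher, 3.7% lower and a median of -0.854 points over all features. Kdm1a, the LSD1 demethylase itself, was detected in 42.5% of FOS+ and 17.1% of FOS- nuclei, Rcor1, the CoREST scaffold, in 47.5% and 26.8%, and Zmym2, a zinc finger subunit, in 62.5% and 41.5%. Phf21a, the relative of Phf21b, had the lowest difference of the list, with 15% of FOS+ and 39% of FOS- nuclei, the opposite side from Phf21b. Ctbp2, a corepressor (25% and 48.8%), Gse1, a complex subunit (25% and 46.3%), and Ehmt1, a histone H3 lysine methyltransferase (35% and 56.1%), also lay on the lower side.

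**Figure D3:**
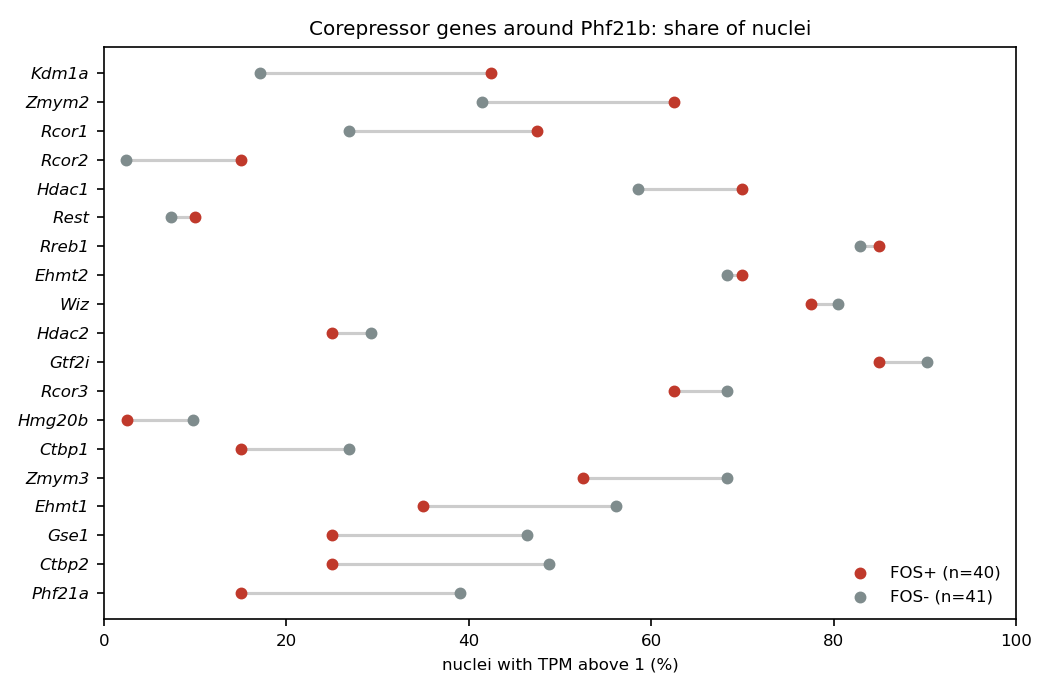
Share of FOS+ (red, n=40) and FOS- (gray, n=41) nuclei above 1 TPM for 19 of the 20 corepressor genes that passed the filter, ordered by the difference. Kdm1a lies at the top with 42.5% against 17.1%, and Phf21a at the bottom with 15% against 39%.

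Among genes related to Sertad1, none of the SERTAD family, for which 2 of 4 genes passed the filter, reached the limit of 20 points. Sertad2 was detected in 25% of FOS+ and 12.2% of FOS- nuclei, and Sertad3, the neighbor of Sertad1, in 0 of either. In the E2F, DP and RB group, 12 of 13 genes passed the filter, 1 was higher and 0 were lower. That gene was Tfdp1, which encodes DP1, with 50% of FOS+ and 22% of FOS- nuclei. Of 11 CDK4 and cyclin D genes 6 passed the filter and 0 reached the limit in either direction, and Cdk4 itself was at 47.5% and 48.8%. Of 4 brown fat partners of Zfp516, 2 passed and 0 reached the limit, and Ucp1 was at 0 in each group. The median difference was 2.8 points in the SERTAD family, 0.396 in the E2F group, 4.42 in the CDK4 group and -8.17 in the brown fat group. The SERTAD and brown fat medians rest on 2 genes each. Over all features the median was -0.854 points, with 4.3% at least 20 points higher and 3.7% at least 20 points lower. Nothing is read from 1 gene of 12 in the E2F group.

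Positions were taken from GENCODE M21 on GRCm38, the build to which mm10 corresponds. Phf21b spans chr15:84785381-84856049 on the minus strand, with 4264 exonic bases over 6 annotated transcripts. Sertad1 is a short gene at chr7:27486910-27490316 on the plus strand, with 1344 exonic bases over 2 transcripts. No stretch of 50 bases, the read length of the NE libraries, was shared between an annotated transcript of these genes and one of another gene. The nearest neighbors of Phf21b, Arhgap8 and Gm4217, were detected in at most 2 FOS+ and 3 FOS- nuclei, and those of Sertad1, Sertad3 and Prx, in at most 2 and 1.

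Zfp516 spans chr18:82910663-83005314 on the plus strand, with 8275 exonic bases over 7 transcripts. The antisense transcript AC142100.4 overlaps it. The libraries do not keep strand, so reads of the pair cannot be told apart where exons overlap.

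The NE nuclei were amplified under 4 conditions, which combined a template-switching oligonucleotide (TSO) at 1 or 10 µM with ERCC spike-in RNA diluted 1:200 or 1:2000. Detection of the 3 genes did not follow the conditions in the same order. Phf21b was detected in 6 of 10 FOS+ nuclei at 1 µM and 1:200, 2 of 8 at 1 µM and 1:2000, 1 of 11 at 10 µM and 1:200, and 7 of 11 at 10 µM and 1:2000. Zfp516 was detected in 4, 0, 3 and 7 nuclei of the same conditions, and Sertad1 in 3, 4, 1 and 2. The 0 of 8 for Zfp516 allows a share of up to 37.5%. Arc was detected in 10, 7, 5 and 9.

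In FOS- nuclei the genes were found in at most 1 nucleus of any condition. The counts there were 0 of 10, 1 of 10, 0 of 10 and 0 of 11 for Phf21b, and Zfp516 and Sertad1 each had their single nucleus at 10 µM, with 1:200 and with 1:2000 respectively. The FOS+ share was at or above the FOS- share in each of the 4 conditions for each gene, as the plot of detection by condition shows. The FOS+ intervals of the 4 conditions overlapped for each gene, in places only narrowly. For Zfp516 they were 0% to 36.9% at 1 µM and 1:2000 and 30.8% to 89.1% at 10 µM and 1:2000. For Phf21b they were 0.230% to 41.3% at 10 µM and 1:200 and 30.8% to 89.1% at 10 µM and 1:2000. The condition at 10 µM and 1:200 had the lowest median total count of FOS+ nuclei (152332) and the condition at 1 µM and 1:2000 the highest (687744). The part of depth in these shares was not tested.

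**Figure D4:**
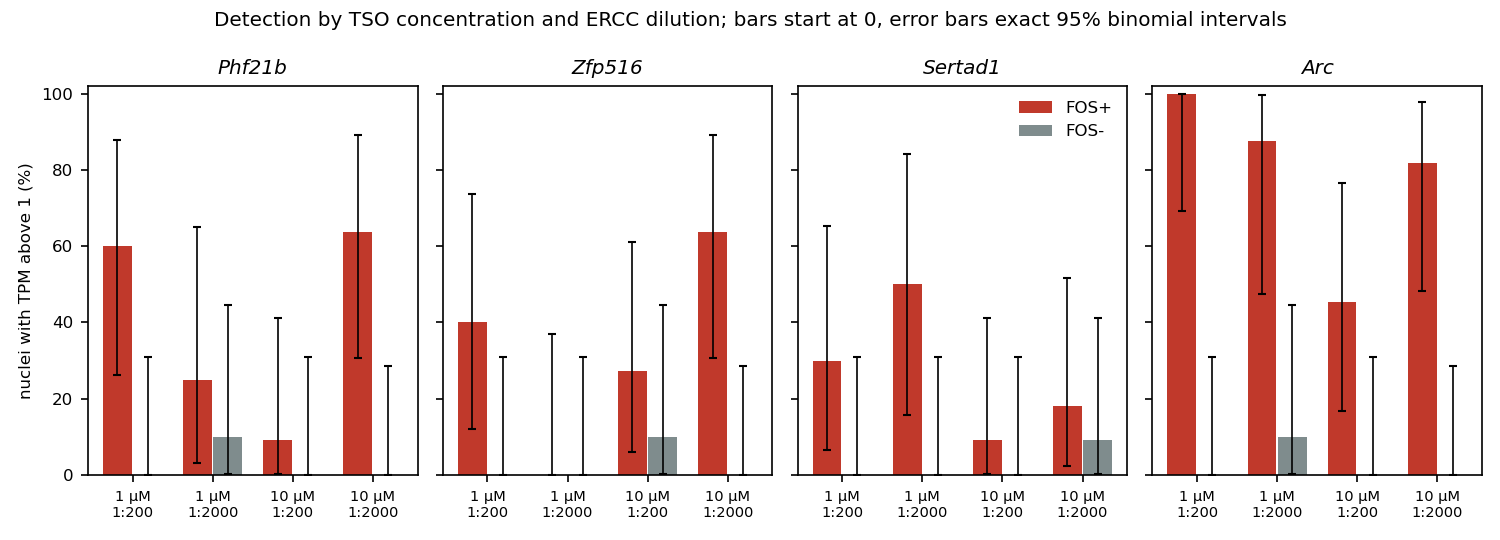
Share of FOS+ (red) and FOS- (gray) nuclei above 1 TPM in the 4 amplification conditions (TSO concentration over ERCC dilution), with exact 95% binomial intervals. Phf21b and Zfp516 reach 63.6% at 10 µM and 1:2000, Sertad1 reaches 50% at 1 µM and 1:2000, and all intervals are wide.

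Taken by TSO alone, Phf21b was detected in 8 of 22 FOS+ nuclei at 10 µM and 8 of 18 at 1 µM, a difference of -8.08 points (interval -39.4 to 24.4). Zfp516 was detected in 10 of 22 and 4 of 18, 23.2 points higher at 10 µM (-9.78 to 50.6), and Sertad1 in 3 of 22 and 7 of 18, or -25.3 points (-52.8 to 5.06). The 3 intervals include 0. Among 12989 features in FOS+ nuclei, 19.4% were at least 20 points higher at 10 µM and 3.29% at least 20 points lower, so the position of Sertad1 was shared by fewer features than that of Zfp516. Arc was detected in 14 of 22 and 17 of 18, a difference of -30.8 points (-54.4 to -1.83), an interval that excludes 0.

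Within the 31 nuclei that held Arc, Zfp516 was found in 10 of 14 nuclei at 10 µM and 4 of 17 at 1 µM, a difference of 47.9 points, where 26.9% of 11521 features were at least 20 points higher and 3.35% at least 20 points lower. Sertad1 was found in 3 of 14 and 7 of 17 (-19.7 points) and Phf21b in 8 of 14 and 8 of 17 (10.1 points). No interval was computed for these differences within nuclei that held Arc. By ERCC dilution, 1:2000 minus 1:200, differences were 14 points for Phf21b, 3.51 for Zfp516 and 12.5 for Sertad1. None of the 3 reached 20 points, a limit passed by 11.1% of features on the higher side and 5.41% on the lower side.

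Arc accompanied each of the 3 transcripts in FOS+ nuclei. Arc was detected in 31 of 40 FOS+ nuclei, and all 16 nuclei with Phf21b, all 14 with Zfp516 and all 10 with Sertad1 were among them. None of the 9 nuclei without Arc held any of the 3, which allows a share of up to 33.3% for each gene. Counting values above 0 as detected, 1 of the 9 held Zfp516, at 0.71 TPM. Of the 31 nuclei with Arc, 51.6% held Phf21b (33.1% to 69.8%), 45.2% Zfp516 (27.3% to 64.0%) and 32.3% Sertad1 (16.7% to 51.4%). The paper describes 9 FOS+ nuclei that grouped with FOS- nuclei by expression, with low Arc, Fos and Egr1 RNA. It left those 9 out of its first FOS+ against FOS- comparison. They were counted among the FOS+ nuclei that passed the study's own quality control, which differ in number from the 40 kept here. The labels do not mark the 9 nuclei of the paper, so they were not removed here. Their overlap with the 9 nuclei without Arc was not tested.

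For background, 13.4% of 12989 features had a share at least 20 points higher in FOS+ nuclei with Arc than in those without. Of 7285 features detected in 10 to 31 FOS+ nuclei, from the number with Sertad1 to the number with Arc, 2.03% were found in no nucleus without Arc. The 3 genes are among these 148 features, and nothing further is read from the share, since detection frequency differs among them. Arc was at 1.85 TPM, from 1 count, in 1 nucleus with Phf21b, and with a detection limit of 5 TPM for both genes that nucleus counts as Phf21b without Arc, 1 of 11. The nuclei with and without Arc had median total counts of 277748 and 214391 and a median of 5903 and 6498 detected genes. The lowest values were 88348 counts and 3360 genes with Arc, and 80096 counts and 1373 genes without. Of the 9 nuclei without Arc, 8 were amplified at 10 µM TSO, 6 of them with ERCC at 1:200. In that condition, Phf21b was found in 1 of 5 nuclei with Arc and 0 of 6 without, Zfp516 in 3 of 5 and 0 of 6, and Sertad1 in 1 of 5 and 0 of 6. The other conditions held 0, 1 and 2 nuclei without Arc, too few for a value of their own, so the part of the condition in the co-detection was not tested.

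The level of Arc beside the members varied widely. Median Arc was 702.0 TPM in FOS+ nuclei with Phf21b, 496.5 with Zfp516 and 1016 with Sertad1, and in Arc-holding nuclei that lacked the gene it was 504.8, 694.6 and 447.4. Only Zfp516 had the lower median in nuclei that held it. The nuclei with Sertad1 held at least 246.4 TPM of Arc.

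Fos mRNA and Egr1 mRNA, which encodes an early zinc finger factor, were present in fewer FOS+ nuclei than Arc. Fos mRNA was detected in 12 of 40 FOS+ nuclei, although all were sorted for FOS protein. Sertad1 was found in 7 of those 12 (58.3%, 27.7% to 84.8%) and in 3 of the other 28 (10.7%, 2.27% to 28.2%). Phf21b was found in 7 (58.3%) and 9 (32.1%), and Zfp516 in 5 (41.7%) and 9 (32.1%). Median total counts were 390281 in FOS+ nuclei with Sertad1 and 238557 in those without. Phf21b was found in 6 of 13 nuclei with Egr1 (46.2%) and 10 of 27 without (37%), Zfp516 in 4 (30.8%) and 10 (37%), and Sertad1 in 5 (38.5%) and 5 (18.5%). The share of all features with such differences was not computed for the Fos and Egr1 splits, so nothing is read from their size.

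The 3 genes shared nuclei only in part. At least 1 of them was detected in 26 of 40 FOS+ nuclei (65.0%), of which 15 held 1, 8 held 2 and 3 held all 3. Phf21b and Zfp516 were together in 8 nuclei, 50% of those with Phf21b and 57.1% of those with Zfp516. Phf21b and Sertad1 were together in 5 (31.3% and 50%), and Zfp516 and Sertad1 in 4 (28.6% and 40%). Among FOS- nuclei the 3 single detections fell in 3 different nuclei.

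**Figure D5:**
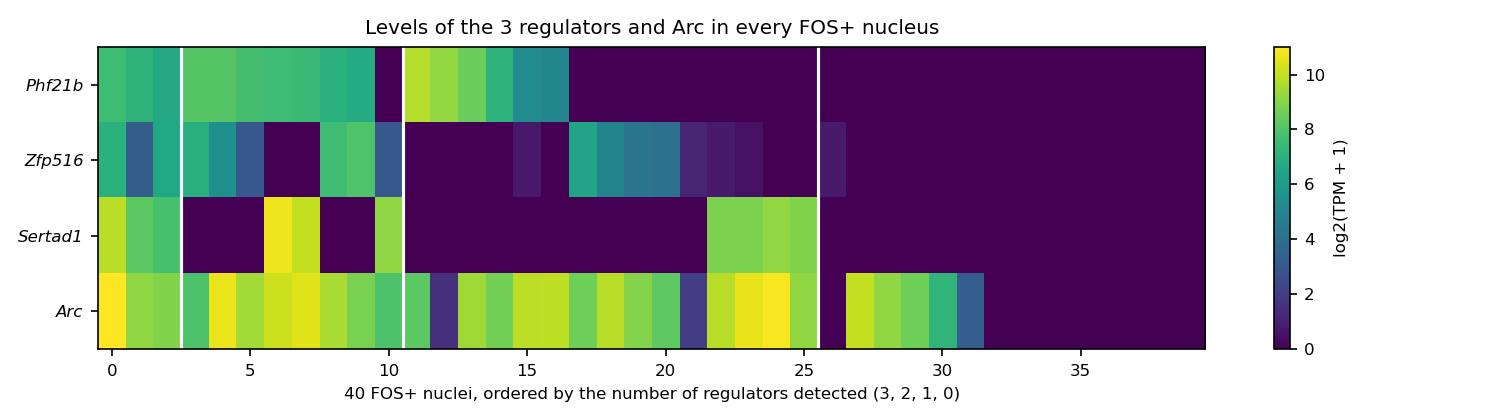
Level, as log2(TPM + 1), of the 3 regulators and Arc in each of the 40 FOS+ nuclei (columns), with white lines between nuclei that held 3, 2, 1 and 0 regulators. The 26 nuclei with a regulator on the left all hold Arc, 2 of them at a low level, and 5 of the 14 without one hold it too.

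Depth and the markers of other cell types moved with detection to some degree. Median total counts were 312225 in the 26 nuclei with a member and 184385 in the 14 without. Thinned to 50000 counts each, and with detection called at 1 count in place of 1 TPM, the share of FOS+ nuclei was 37.8% for Phf21b, 33.7% for Zfp516 and 25% for Sertad1, and 0.576%, 0.654% and 0.519% for FOS- nuclei. At least 2 markers of 1 other cell type were above 1 TPM in 17 of the 26 nuclei with a member and in 6 of the 14 without.

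Such nuclei came from the oligodendrocyte list (14 of 40 FOS+ and 8 of 41 FOS- nuclei), the interneuron list (6 and 6) and the microglia list (4 and 1). In FOS+ nuclei 2 of 4 oligodendrocyte, 2 of 3 interneuron (Gad1 and Gad2) and 2 of 3 microglia markers (Csf1r and Cx3cr1) were detected. In FOS- nuclei these numbers were 3, 3 and 2. The defining markers Olig2, Mog, Slc32a1, C1qa, Aldh1l1 and Cldn5 were at or below 1 TPM in every FOS+ nucleus. Astrocyte markers (2 of 3 detected) and endothelial markers (1 of 2) gave no FOS+ nucleus with 2. The summed level of the oligodendrocyte list ran from 0 to 899.2 TPM in FOS+ and 0 to 350.5 in FOS-, that of the interneuron list to 1360 and 1313, and that of the microglia list to 455.8 and 51.8. Without the nuclei of either group that held such markers, a split added after the data were seen, Phf21b was detected in 29.4% of 17 FOS+ and 3.70% of 27 FOS- nuclei, Zfp516 in 23.5% and 3.70%, and Sertad1 in 29.4% and 0%, which allows up to 11.1%. Prox1 was detected in 23 of the 26 nuclei with a member.

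By overlap of detection across the 81 NE nuclei (shared nuclei over nuclei with either gene), the features most like Phf21b were Pim1, a kinase gene (0.516), Cenpa, a centromeric histone gene, and Zdbf2 (0.500 each). Those most like Zfp516 were Grk6, a receptor kinase gene (0.452), Nploc4 (0.429) and Arc (0.424). Those most like Sertad1 were Gm29491 (0.455), Egr4, an early growth response gene (0.444), and Inpp5d (0.4). Between members it was 0.333 for Phf21b and Zfp516, 0.217 for Phf21b and Sertad1 and 0.182 for Zfp516 and Sertad1. These values rest on few nuclei and on shared libraries.

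In home-cage nuclei the genes were nearly absent from the tables. Phf21b was detected in 2 of 23 HC nuclei (8.70%, 1.07% to 28%), at 7.82 and 3.24 TPM from 3 counts and 1 count. Zfp516 and Sertad1 were at 0 in all 23, which allows a share of up to 13% for each, and Arc was detected in 1. HC nuclei were amplified on another system and sequenced with other reads, so these shares stand beside the NE values without a comparison.

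In whole cells Sertad1 alone of the 3 was often detected. It was found in 11 of 38 saline cells (28.9%, 15.4% to 45.9%) and 9 of 30 PTZ cells (30%, 14.7% to 49.4%), at 2.63 to 374.8 TPM and 1.45 to 609.6 TPM, and the ranges overlapped. Phf21b was found in 3 saline cells (7.89%), at 164.7, 23.8 and 1.18 TPM, and in 3 PTZ cells (10.0%), at 99.6, 78.8 and 4.55 TPM. Zfp516 was found in 1 saline cell, at 15.4 TPM, and in 2 PTZ cells, at 9.94 and 4.88 TPM.

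The difference in share between PTZ and saline cells had an interval that included 0 for each gene. PTZ minus saline was 2.11 points for Phf21b (interval -13.5 to 19.8), 4.04 for Zfp516 (-8.58 to 19.7) and 1.05 for Sertad1 (-21.8 to 24.7). Of 13748 features, 3.29% were at least 20 points higher in PTZ and 4.59% at least 20 points lower, and none of the 3 was. The library titles carry a different suffix for each treatment, and the labels do not give its meaning. A batch that followed the treatment could therefore not be told apart from it. Fos mRNA was detected in 30 of 38 saline cells and 26 of 30 PTZ cells, and Arc in 17 and 14.

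Summed CPM were 3.90-fold higher in PTZ for Phf21b, 2.38-fold for Zfp516 and 1.38-fold for Sertad1, but these ratios rested on few cells. The PTZ cell with the most counts held 73.1% of the PTZ counts of Phf21b, 95.8% of those of Zfp516 and 44.4% of those of Sertad1. The saline cell with the most counts held 74.0%, 98.0% and 35.3% of the saline counts. Without the PTZ cell alone the ratios were 1.11, 0.113 and 0.800, so the direction turned for Zfp516 and Sertad1. With the top cell of each group left out, a choice added after the data were seen, they were 4.21 for Phf21b and 1.19 for Sertad1, and 5 PTZ counts and 1 saline count remained for Zfp516. None of the 3 passed 4-fold, which 4.63% of features passed on the higher side and 3.85% on the lower side. The mean of log2(TPM + 1) in saline and PTZ cells was 0.35 ± 1.40 and 0.51 ± 1.68 for Phf21b, 0.11 ± 0.65 and 0.22 ± 0.77 for Zfp516, and 1.86 ± 3.09 and 1.64 ± 2.82 for Sertad1 (SD over 38 and 30 cells). A single PTZ cell held all 3 genes, and it had the most counts (5129240) and detected genes (12220) of its group.

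Sertad1 was also found beside Arc in whole cells. In saline cells it was detected in 9 of 17 cells with Arc (52.9%) and 2 of 21 without (9.52%), a difference of 43.4 points, where 16.7% of 11674 features were at least 20 points higher in cells with Arc. In PTZ cells it was detected in 6 of 14 with Arc (42.9%) and 3 of 16 without (18.8%), a difference of 24.1 points, where 40.7% of 11499 features passed the same limit, so its place in PTZ cells was near the background. Phf21b was detected beside Arc in 2 of 3 cells of each treatment, and Zfp516 in 1 of 1 saline and 2 of 2 PTZ cells.

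The corepressor list in whole cells gave 1 gene higher in PTZ and 1 lower among 20 that passed the filter, near the 3.29% and 4.59% of all features, with a median difference of -1.23 points. The higher gene was Rcor2, a CoREST paralog (33.3% of PTZ and 10.5% of saline cells). The SERTAD family (3 genes passed), the E2F group (10), the CDK4 group (8) and the brown fat group (3) had 0 genes past 20 points in either direction, with median differences of 7.19, -3.25, -5.88 and -0.526 points against -0.877 over all features. Phf21a was detected in 50% of saline and 46.7% of PTZ cells, where Phf21b was at 7.89% and 10.0%.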

How the data were processed

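Members and lists were chosen with earlier results of these data known. The authors aligned reads to mm10 with Bowtie 1.0.0 and RSEM (WC and HC paired-end, NE single-end, of 50 bases) and deposited, for each library, expected counts and TPM per gene symbol, on which everything here is based. Expected counts were summed for pooled values and not rounded, except in counting intervals, thinning and normalization factors. NE and WC libraries were kept with over 50000 total counts and detected genes above the mean minus 2 SD of their table, after the study's criteria. All HC libraries were kept. Every NE and WC library left out had a total of 50000 counts or fewer, so the limit on detected genes removed no further library. A FOS+ nucleus with 1373 detected genes was therefore kept. The study's criteria on uniquely aligned reads and on spike-in correlation could not be computed from these tables. The numbers kept differ from the study's for FOS+, FOS- and PTZ. Shares have exact (Clopper-Pearson) intervals and their differences a hybrid of those limits. Summed counts have exact Poisson or conditional binomial intervals. Alternatives used other detection limits, pseudocounts, depths, libraries and TMM (edgeR 4.0.16 in R 4.3.3) or median-of-ratios factors. Named list genes are those past 20 points, with the family of each member and examples chosen after their values were seen. Likeness was given for the 3 features with the greatest overlap of detection. Python 3.11.15, numpy 2.4.6, pandas 2.3.3, scipy 1.17.1 and matplotlib 3.10.9 were used, and the counting code was tested on simulated data. Values of 1 corepressor gene and 1 cell type marker are not reported here by name, though both stay in the counts of their lists.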

Additional observations from a re-analysis of the deposited data

How the results depend on the processing

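No paired analysis was possible because the libraries are single cells and nuclei with no number shared between groups. The alternatives used other detection limits, pseudocounts, libraries, thinning and scaling. 124 of 137 alternative values stayed within the counting interval, SD or 1.5-fold range of the value given. FOS+ minus FOS- shares kept their direction under every alternative tried. They ran from 25.7 to 40 points for Phf21b, 19.8 to 37.7 for Zfp516 and 18.8 to 29.4 for Sertad1. The genes were selected on this difference in the same libraries, so nothing is read from the kept direction. The alternatives for these shares are also part of the 137, as are those for the FOS+ against FOS- mean levels and summed CPM ratios of the 3 genes. All of them stayed in range, and nothing is read from their part of the tally. The PTZ minus saline share of Sertad1 reversed to -2.98 points with a rounded count of at least 5 and to -3.14 points after thinning to 50000 counts. Without the cell with most counts the PTZ over saline ratio moved to 1.11 for Phf21b and reversed to 0.113 for Zfp516 and 0.800 for Sertad1. Without the top cell of each group, a choice added after the data were seen, the Sertad1 ratio was 1.19. The HC share of Phf21b was 0% with a rounded count of at least 5. Counts of features past 4-fold moved to 2285 higher and 3587 lower in FOS+, and 1897 higher and 1474 lower in PTZ, when features detected in only 1 library were kept, since more features were compared. With a limit of 5 TPM they were 417 higher and 333 lower in PTZ. Each group is 1 sample, and no difference is tested against variation between mice.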
